A study of Mus musculus with 33 samples.

Results

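The kidneys described here are 10 late kidneys of lupus-prone mice, collected 7 or 9 weeks after an interferon-alpha vector, which were grouped by their own level of Lcn2 transcript. Of these kidneys, 7 had an Lcn2 level above 7 on the log2 scale and are called high-Lcn2 late kidneys. The other 3, at or below that level, are called low-Lcn2 late kidneys. They come from a series of 33 kidneys, 1 array per kidney, which also holds 20 treated kidneys of earlier weeks and 3 untreated kidneys. The strain was NZB X NZW F1 (BWF1), a hybrid that develops a spontaneous immune-complex nephritis, and the mice were female per the methods of the study. The late mice had received Adv-IFNα, an adenovirus carrying the mouse interferon-alpha gene, by the intravenous route. The earlier treated mice received the same vector and were sampled at weeks 1, 2, 3 and 5, with 5 kidneys in each of the 6 weeks. The untreated mice received nothing and serve as the controls. The study calls its controls age-matched, but the labels give no age for them and do not say which week they match. No group that received an empty virus was analysed here, so the vector and the interferon cannot be told apart. The methods describe a pair of independent experiments, and the labels do not say which kidney came from which. The labels give no proteinuria or histology for single mice, so the terms high-Lcn2 and low-Lcn2 state a transcript level and no grade of disease.

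Lcn2 encodes lipocalin-2 (neutrophil gelatinase-associated lipocalin), a secreted protein that carries iron-binding siderophores. It is stored in neutrophil granules, and stressed tubule epithelium of the kidney makes it in large amounts, for which it is used as a urine marker of tubular injury. A tubule cell under injury is known to lose part of its transport and metabolic program while it switches on adhesion, repair and signalling genes. In lupus nephritis immune complexes first reach the glomerulus, and damage to the tubules and the space between them accompanies loss of kidney function.

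At week 7 the Lcn2 level was 9.55, 9.93, 8.53 and 9.21 in the high-Lcn2 late kidneys (replicates 1, 2, 3 and 5) and 4.30 in the low-Lcn2 late kidney (replicate 4). At week 9 it was 8.84, 9.94 and 8.55 in the high-Lcn2 late kidneys (replicates 1, 4 and 5), against 4.82 and 5.90 in the low-Lcn2 late kidneys (replicates 2 and 3). The kidneys next to the level on each side thus stood at 8.53 and 5.90, with none between. In treated kidneys of weeks 1 to 5 the level ran between 3.17 and 4.66, and in untreated kidneys between 3.75 and 4.37. The low-Lcn2 late kidney of week 7 lay within the untreated range and the low-Lcn2 late kidneys of week 9 lay above it. A single probe set measured the gene, and it is left out of every count below.

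**Figure D1:**
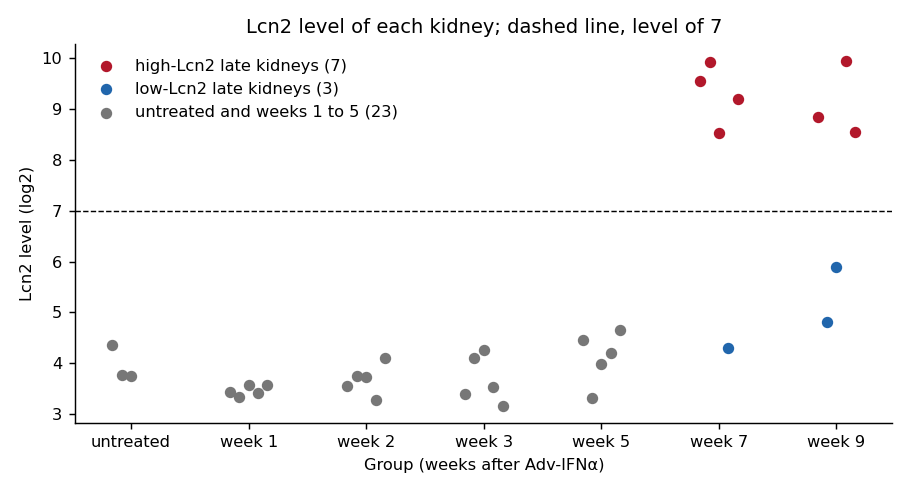
Lcn2 level of each of the 33 kidneys (vertical axis, log2) by group (horizontal axis), with 1 point per kidney and the level of 7 as a dashed line. The 7 high-Lcn2 late kidneys lie between 8.53 and 9.94, and the 3 low-Lcn2 late kidneys between 4.30 and 5.90.

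Because a measured value of these arrays set the kidneys apart, the difference between the sets is given as a description, with no test. A gene is called set apart when all 7 high-Lcn2 late kidneys lay beyond all 3 low-Lcn2 late kidneys and the means differed by over 2-fold, which is 1 unit on the log2 scale. Of 17096 genes, 172 (1.01%) were set apart as higher and 149 (0.872%) as lower. Without the fold threshold the sets did not overlap in 1125 genes (6.58%) that were higher and 830 (4.85%) that were lower. Injury genes of the tubule, collagens and other matrix genes, acute phase genes and chemokines stood among the higher genes. Transporters and metabolic enzymes of the proximal tubule stood among the lower genes. The 3 late kidneys with the lowest level of globin transcripts, a mark of blood in the tissue, were all high-Lcn2 late kidneys of week 7 (replicates 2, 3 and 5, at 5.79 to 6.97). Without them the counts were 244 higher and 134 lower, an alternative chosen after seeing the data. Arrays of both sets were alike in their medians, at 3.97 to 4.10 in the high-Lcn2 and 3.98 to 4.08 in the low-Lcn2 late kidneys. The log2 ratio of the 3′ to the 5′ probe sets of beta-actin, which grows as RNA breaks down, was 1.79 to 2.13 in the high-Lcn2 and 2.01 to 2.19 in the low-Lcn2 late kidneys. That ratio was 1.47 to 1.75 in untreated kidneys, so comparisons with untreated kidneys also compare arrays that differ in it, and its part in them was not tested for single genes. Kidney identity was shown by Umod, the urinary protein of the thick ascending limb, at 11.09 ± 0.09 in high-Lcn2 and 11.22 ± 0.10 in low-Lcn2 late kidneys (SD, n = 7 and 3). In whole kidney, fewer cells of a type and less RNA per cell cannot be told apart.

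**Figure D2:**
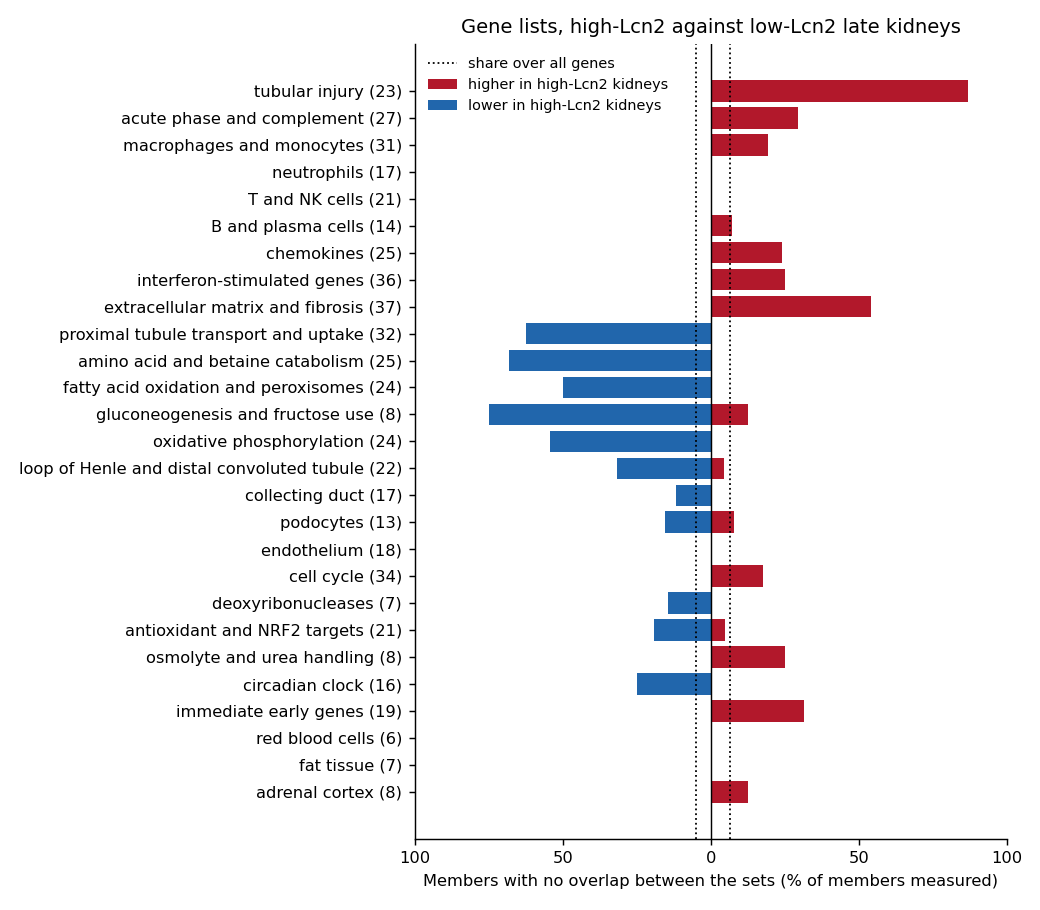
Share of the measured members of 27 gene lists (horizontal axis, percent) whose 7 high-Lcn2 and 3 low-Lcn2 late kidneys did not overlap, to the right where higher and to the left where lower in high-Lcn2 late kidneys, with the number measured in brackets. Dotted lines mark the shares over all 17096 genes, 6.58% higher and 4.85% lower, and the tubular injury list has 20 of 23 members on the higher side.

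Promoter windows are shown for 3 of the genes set apart, picked among those that held a motif named below. Of the genes with the largest differences, Cp, Havcr1, Aoc1 and Ugt2b37 also held matches. Some of these genes, Aqp4 and Cndp1 among them, had no window in this listing, so nothing is said of their motifs. Cp, a higher gene, held an HNF1 match and an AP-1 match. The RefSeq table (GRCm38.p6) gave windows of 300 bases around the start of 131 of the 172 higher genes and 122 of the 149 lower genes. Windows run 5′ to 3′ on the strand of the gene, and capitals mark the motif. Cxcl1 lies on chromosome 5 (chr5:90890995-90891294, plus strand) and its capitals are 2 overlapping NF-kappaB matches. Cldn4 lies on chromosome 5 (chr5:134946885-134947184, minus strand) and its capitals are 2 AP-1 matches. Igfbp1, a lower gene, lies on chromosome 11 (chr11:7197537-7197836, plus strand) and its capitals are an HNF1 match on the other strand.
Cxcl1: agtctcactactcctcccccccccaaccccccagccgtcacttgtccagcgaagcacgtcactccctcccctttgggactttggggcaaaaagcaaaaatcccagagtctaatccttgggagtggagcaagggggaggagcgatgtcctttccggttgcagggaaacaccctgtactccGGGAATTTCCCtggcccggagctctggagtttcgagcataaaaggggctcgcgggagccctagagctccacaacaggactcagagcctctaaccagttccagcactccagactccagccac
Cldn4: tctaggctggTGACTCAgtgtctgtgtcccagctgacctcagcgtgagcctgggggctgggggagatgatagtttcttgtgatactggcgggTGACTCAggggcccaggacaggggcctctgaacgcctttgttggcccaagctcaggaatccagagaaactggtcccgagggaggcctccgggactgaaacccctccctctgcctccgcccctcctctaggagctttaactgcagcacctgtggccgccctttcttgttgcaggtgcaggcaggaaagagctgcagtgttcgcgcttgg
Igfbp1: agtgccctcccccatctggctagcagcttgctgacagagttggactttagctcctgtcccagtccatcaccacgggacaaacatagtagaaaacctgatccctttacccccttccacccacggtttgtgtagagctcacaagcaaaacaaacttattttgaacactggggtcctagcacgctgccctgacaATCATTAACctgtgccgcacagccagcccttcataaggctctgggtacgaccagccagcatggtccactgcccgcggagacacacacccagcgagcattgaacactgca

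Motifs were searched on both strands: the NF-kappaB motif, AP-1 (TGANTCA), STAT (TTCNNNGAA), an HNF1 motif (GTTAATNAT) and an HNF4 site (CAAAGTCCA). The NF-kappaB motif was in 17.0% of the 165 windows of higher genes and 8.28% of the 145 windows of lower genes, against 10% of the 17064 windows of all genes measured. AP-1 was in 12.1% of windows of higher genes and 5.52% of those of lower genes, against 6.51% over all genes. STAT was in 8.48% and 2.76%, against 7.36%. The HNF1 motif was in 1 window of a higher gene and 3 windows of lower genes (0.606% and 2.07%), against 0.609% over all genes, and the HNF4 site in 0 and 2. These are matches of letters and were not tested.

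Tubular injury genes were the list with the largest share set apart on the higher side among the 27 lists. Of 23 measured members, 20 did not overlap as higher and 14 were also over 2-fold, with a median difference of 1.19 on the log2 scale, beside 0.04 over all genes. Havcr1, which encodes kidney injury molecule-1, a receptor that proximal tubule cells show on their surface after injury, stood at 9.45 to 10.83 (median 10.29) in high-Lcn2 and at 7.54, 8.46 and 8.43 in low-Lcn2 late kidneys. Every high-Lcn2 kidney was above the highest low-Lcn2 kidney, and the means differed by 2.10. Untreated kidneys stood at 6.88 ± 0.39 (SD, n = 3), so the low-Lcn2 late kidneys were themselves 1.26 above them. Cldn4, a tight junction claudin of the distal nephron, was 6.47 ± 0.69 in high-Lcn2 and 4.34 ± 0.47 in low-Lcn2 late kidneys (SD, n = 7 and 3). Krt20, an epithelial keratin, differed by 1.99 between the sets, and its low-Lcn2 kidneys (3.58 to 4.19) were at the untreated mean of 3.77. Clu, the chaperone clusterin, differed by 1.66 and S100a6, a calcium-binding protein, by 1.65. Every kidney of the high-Lcn2 set had a mean over the list of 7.49 to 8.22, the low-Lcn2 set 6.61 to 6.91, and untreated kidneys 5.97 to 6.24.

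**Figure D3:**
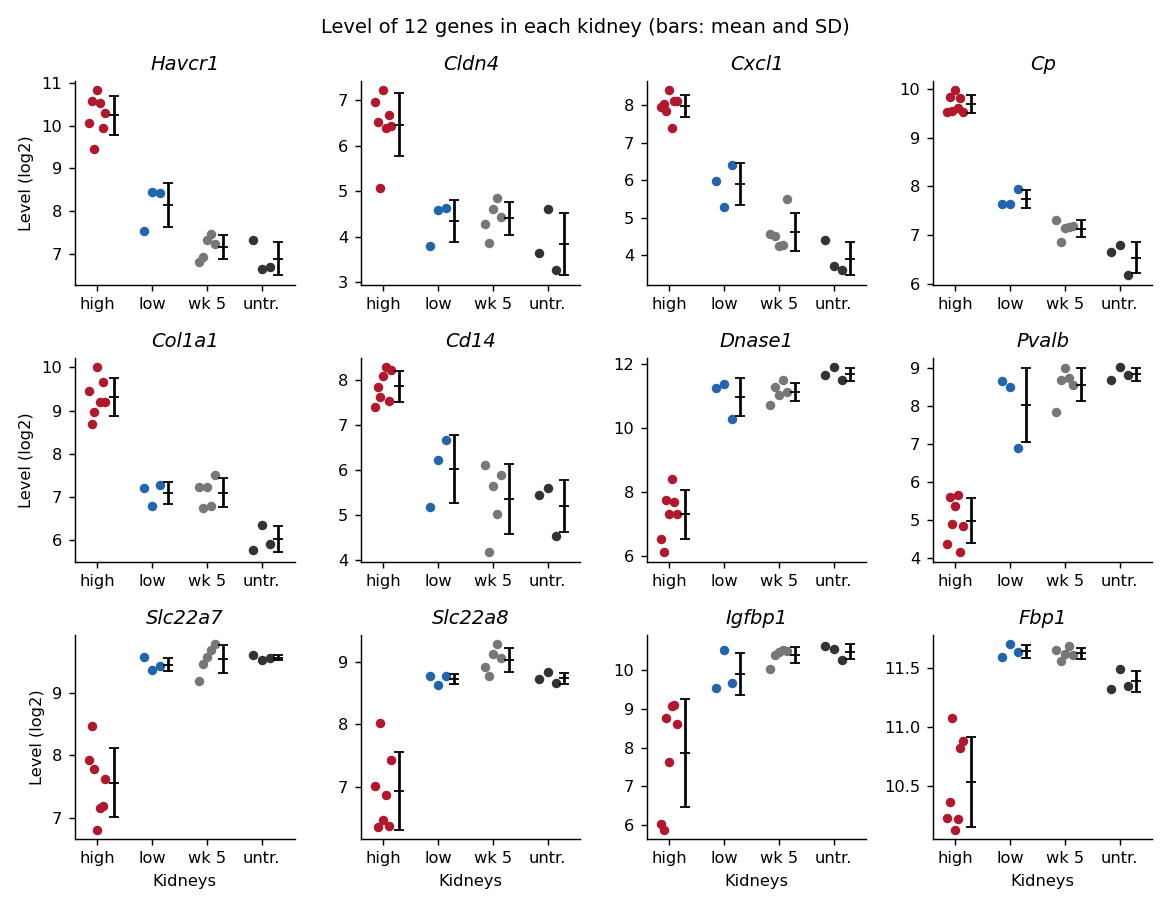
Levels of 12 genes (vertical axes, log2) in the 7 high-Lcn2 late kidneys, the 3 low-Lcn2 late kidneys, the 5 kidneys of week 5 and the 3 untreated kidneys (horizontal axes, left to right), with 1 point per kidney and the mean and SD as bars. High-Lcn2 and low-Lcn2 late kidneys do not overlap in any of the 12; Dnase1 spans 6.11 to 8.39 in the high-Lcn2 and 10.29 to 11.39 in the low-Lcn2 late kidneys.

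Acute phase and complement genes had 8 of 27 measured members without overlap, all higher, with a median difference of 0.70. Cp encodes ceruloplasmin, the copper-carrying ferroxidase of plasma. It was 9.53 to 9.98 (median 9.62) in high-Lcn2 and 7.65, 7.63 and 7.95 in low-Lcn2 late kidneys, both narrow ranges, and the means differed by 1.96. Cfi, the protease that inactivates C3b and C4b, differed by 1.59, and Osmr, a receptor chain for oncostatin M, by 1.43. Socs3, an inhibitor of cytokine signalling that cytokines induce, differed by 1.12, and was at 3.34 ± 0.32 in low-Lcn2 kidneys against 3.44 ± 0.14 in untreated kidneys (SD, n = 3 each). C4b, a complement component, differed by 1.10. Both late sets stood above untreated kidneys in C4b, by 3.33 and 2.23. Kidneys of week 1 did so too, at 7.52 to 8.04, beside 7.77 to 9.02 in high-Lcn2 late kidneys.

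Chemokine genes had 6 of 25 measured members without overlap as higher, 3 of them over 2-fold, with a median difference of 0.72. Cxcl1, a ligand of the neutrophil receptor CXCR2, was 7.98 ± 0.30 in high-Lcn2 and 5.90 ± 0.57 in low-Lcn2 late kidneys (SD, n = 7 and 3), a difference of 2.08. Its promoter window with the NF-kappaB match is printed above. Cxcl2, another ligand of that receptor, differed by 1.46, and Cx3cl1, the membrane-bound chemokine fractalkine, by 1.00. Cxcl16 differed by 0.75. Ccl7, which draws monocytes, was dim in both sets, at 2.09 to 4.0 in high-Lcn2 and 1.59 to 1.74 in low-Lcn2 late kidneys.

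Marker lists of immune cells did not move as one. Neutrophil markers, Lcn2 left out, had 0 of 17 members without overlap, a median difference of -0.08, and 15 of 17 were dim, with a mean below 5 over the late kidneys. The mean over that list was 2.87 to 3.15 in high-Lcn2 and 2.97 to 3.27 in low-Lcn2 late kidneys. S100a8, a defining neutrophil protein, was 2.49 ± 0.19 and 2.86 ± 0.36 (SD, n = 7 in high-Lcn2 and 3 in low-Lcn2 late kidneys), and Mpo, the granule peroxidase, 2.35 ± 0.22 and 2.48 ± 0.20. At such dim levels a change in neutrophils may not be detectable. Macrophage and monocyte markers had 6 of 31 members without overlap as higher, with list means of 5.70 to 6.74 in high-Lcn2 and 5.46 to 5.75 in low-Lcn2 late kidneys, which overlapped. Cd14, a co-receptor for lipopolysaccharide that tubule cells can also make, differed by 1.84, Fcgr1, the high-affinity Fc receptor, by 1.29, Msr1, a scavenger receptor, by 1.17, Fcgr3 by 1.12 and Plac8 by 1.12. Adgre1 and Cd68, general macrophage markers, overlapped (4.72 ± 0.91 against 4.16 ± 0.19, and 5.02 ± 0.36 against 4.28 ± 0.31; SD, n = 7 high-Lcn2 and 3 low-Lcn2 late kidneys). T and NK cell markers had 0 of 21 without overlap and B and plasma cell markers had 1 of 14. Over all genes 6.58% were higher without overlap, so 1 of 14 is close to that share. That gene was Irf4, a transcription factor of lymphoid and myeloid cells, which differed by 1.09. Jchain, the joining chain of secreted antibody polymers, spanned 4.81 to 9.15 in high-Lcn2 and 5.67 to 7.96 in low-Lcn2 late kidneys, so that the kidneys of both sets were mixed. The part of infiltrating cells in the other results was not tested.

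Extracellular matrix and fibrosis genes had 20 of 37 measured members without overlap, all higher, and 12 over 2-fold, with a median difference of 0.81. Col1a1, a chain of type I collagen, was 8.69 to 10 (median 9.20) in high-Lcn2 and 7.20, 6.79 and 7.28 in low-Lcn2 late kidneys, a difference of 2.22. Col3a1, the chain of type III collagen, differed by 1.71 and Col6a2, of type VI collagen, by 2.17. Low-Lcn2 late kidneys were above untreated kidneys in Col1a1 and Col3a1, by 1.08 and 1.07, and at 3.41 ± 0.65 in Col6a2, against 3.72 ± 0.44 in untreated kidneys (SD, n = 3 each). Timp1, an inhibitor of matrix metalloproteinases, differed by 1.93, and Lox, which cross-links collagen, by 1.66. Tnc, which encodes tenascin-C, differed by 1.32. Acta2, the smooth muscle actin of myofibroblasts and vessels, overlapped between the sets, at 8.17 to 9.59 in high-Lcn2 and 7.66 to 8.50 in low-Lcn2 late kidneys. Col1a2 was represented by a dim probe set, at 1.79 and 1.41, from which nothing is read.

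Interferon-stimulated genes stood above untreated kidneys in both late sets. The median member was 2.43 above untreated kidneys in high-Lcn2 and 1.46 above them in low-Lcn2 late kidneys. Between the sets 9 of 36 members did not overlap, all higher, and 5 were over 2-fold. Ifit2, which binds viral RNA, was 8.30 ± 0.81 in high-Lcn2 and 7.06 ± 0.32 in low-Lcn2 late kidneys (SD, n = 7 and 3), against 5.62 ± 0.73 in untreated kidneys (n = 3). Rtp4, an interferon-induced protein, was 8.28, 7.14 and 4.75 in the high-Lcn2, the low-Lcn2 and the untreated means. Parp14 differed by 1.05 between the late sets, Epsti1 by 1.04 and Gbp2 by 1.27. The Gbp2 difference leans on week 7 replicate 1, at 9.44, with the other high-Lcn2 late kidneys at 6.96 to 7.51. The list mean overlapped narrowly, at 7.35 to 8.84 in high-Lcn2 and 6.49 to 7.38 in low-Lcn2 late kidneys. It was 7.919 to 8.175 in kidneys of week 1 and 6.83 to 7.59 in those of week 5, against 5.12 to 5.78 in untreated kidneys. A level above untreated kidneys was thus not particular to late kidneys.

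Cell cycle genes had 6 of 34 members without overlap as higher, 4 of them over 2-fold, beside 6.58% of all genes without overlap as higher. Nusap1, of the mitotic spindle, was 7.01 ± 0.46 and 5.70 ± 0.34 (SD, n = 7 in high-Lcn2 and 3 in low-Lcn2 late kidneys), and Prc1, of the spindle midzone, was 7.23 ± 0.44 and 5.95 ± 0.82. Both stood over 1 unit above untreated kidneys in both late sets. Immediate early genes had 6 of 19 without overlap, with Egr2 different by 1.56 and Atf3, a stress-induced transcription factor, by 1.06.

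On the lower side, transporters of the proximal tubule, the segment that reclaims most of the filtrate, had 20 of 32 measured members without overlap as lower and 0 as higher, with a median difference of -0.70. The low-Lcn2 late kidneys had a median of -0.04 against untreated kidneys over the same list. Slc22a7, the organic anion transporter OAT2, was 6.82 to 8.46 (median 7.63) in high-Lcn2 and 9.56, 9.36 and 9.42 in low-Lcn2 late kidneys, against 9.60, 9.53 and 9.54 in untreated kidneys. Every high-Lcn2 kidney was below every other kidney of these groups. Slc22a8, the anion transporter OAT3, differed by -1.79, with 6.36 to 8.03 in high-Lcn2 and 8.63 to 8.78 in low-Lcn2 late kidneys. Slc13a3, a sodium-coupled dicarboxylate transporter, differed by -1.51, and Slc6a19, the transporter of neutral amino acids in the brush border, by -1.35. Slc22a22 and Slc22a27, of the same organic ion transporter family, differed by -2.65 and -2.30. Slc22 genes lie in clusters of similar sequence, so cross-hybridisation between members was not tested. Cubn, the endocytic receptor cubilin, did not overlap but differed by less, at -0.79.

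Dnase1, which encodes the secreted nuclease that digests extracellular DNA, had the most negative difference of the named genes. Its level was 6.53, 6.11, 7.76 and 7.32 in the high-Lcn2 late kidneys of week 7 and 8.39, 7.70 and 7.31 in those of week 9. The low-Lcn2 late kidneys stood at 11.24, 11.39 and 10.29, and untreated kidneys at 11.67, 11.90 and 11.49. The low-Lcn2 kidney with the lowest Dnase1, week 9 replicate 3, was also the one with the highest Lcn2 of its set. The means of the late sets differed by -3.67, a 12.7-fold lower level in high-Lcn2 late kidneys. Of 7 deoxyribonuclease genes measured, only Dnase1 had no overlap, and the list median difference was -0.21.

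Enzymes of amino acid and betaine catabolism had 17 of 25 measured members without overlap as lower, 11 of them over 2-fold, and a median difference of -0.83. Bhmt, which remethylates homocysteine with betaine, was 2.16 to 3.75 in high-Lcn2 and 6.38 to 6.67 in low-Lcn2 late kidneys, against 7.57 to 7.85 in untreated kidneys. It was the gene of this list with the largest difference, -3.39. Hpd, of tyrosine breakdown, differed by -2.60, and Ass1, which makes argininosuccinate for arginine synthesis, by -1.54. Bhmt and Hpd were dim in the high-Lcn2 set, with means of 3.14 and 3.72, so the size of their falls is uncertain. Agxt2 and Haao differed by -1.45 and -1.43. Gluconeogenesis and fructose use had 6 of 8 members without overlap as lower and 1 as higher. Fbp1, fructose-1,6-bisphosphatase, was 10.53 ± 0.38 and 11.64 ± 0.06 (SD, n = 7 in high-Lcn2 and 3 in low-Lcn2 late kidneys). Pcx, pyruvate carboxylase, differed by -1.47, Slc37a4, which carries glucose 6-phosphate into the endoplasmic reticulum, by -1.23, and Khk, ketohexokinase, by -1.18. Pck1 differed by -1.13 from a probe set that was dim in both sets (2.97 in high-Lcn2 and 4.11 in low-Lcn2), so little is read from it.

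Fatty acid oxidation and peroxisome genes had 12 of 24 members without overlap as lower, with a median difference of -0.38. Acsm1, an acyl-CoA synthetase for medium-chain acids, differed by -1.35, Acox2, a peroxisomal oxidase, by -1.06 and Acadm, the medium-chain acyl-CoA dehydrogenase, by -1.04. Oxidative phosphorylation genes had 13 of 24 without overlap as lower and 0 over 2-fold, so that the list moved by little per gene, with a median of -0.34. Ndufs1, a subunit of complex I, was 8.85 ± 0.10 and 9.52 ± 0.09 (SD, n = 7 in high-Lcn2 and 3 in low-Lcn2 late kidneys), and Sdhb, of complex II, 8.53 ± 0.25 and 9.23 ± 0.16. Sod2, the mitochondrial superoxide dismutase, differed by -0.98 and Cat, the peroxisomal catalase, by -0.63. The list of antioxidant genes and NRF2 targets did not move as a whole. Of its 21 measured members, 4 were lower and 1 higher without overlap, with a median of -0.03.

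Genes of the loop of Henle and distal convoluted tubule had 7 of 22 members without overlap as lower and 1 as higher. Pvalb, a calcium buffer of the distal convoluted tubule, was 4.14 to 5.65 (median 4.88) in high-Lcn2 and 8.67, 8.50 and 6.90 in low-Lcn2 late kidneys, and untreated kidneys stood at 8.67 to 9.02. The lowest of the low-Lcn2 kidneys was again week 9 replicate 3. Egf, whose precursor is made in the thick ascending limb and distal convoluted tubule, was 10.07 ± 0.44 and 11.62 ± 0.22 (SD, n = 7 in high-Lcn2 and 3 in low-Lcn2 late kidneys). Kl, the co-receptor of FGF23 known as klotho, differed by -0.99, and Slc12a1, the transporter that loop diuretics block, by -0.41. Collecting duct genes had 2 of 17 without overlap as lower, Aqp4, a water channel of the basolateral membrane (-2.25), and Slc26a4, pendrin (-0.94). The list median was -0.13, with 11 members lower and 6 higher by their means. Aqp2, a marker of the collecting duct, overlapped, at 4.585 to 5.215 in high-Lcn2 and 4.404 to 4.612 in low-Lcn2 late kidneys. Over all genes 4.85% were lower and 6.58% higher without overlap, so little is read from counts this small. Podocyte genes had 2 lower and 1 higher of 13 without overlap, with a median of -0.24 and 8 members lower by their means. The higher member was Cd2ap, a slit diaphragm adaptor, different by 0.83 and so against the lean of its list. Endothelial genes had 0 of 18 without overlap in either direction and a median of -0.07. Red blood cell and fat genes had 0 of 6 and 0 of 7 without overlap. The list means of red blood cell genes were 6.53 to 8.60 in high-Lcn2 and 8.28 to 8.81 in low-Lcn2 late kidneys.

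Other genes with the largest positive differences had roles outside these lists. Ugt2b37, a glucuronosyltransferase, had the largest of them, 3.56, at 5.83 to 8.19 (median 7.11) in high-Lcn2 and 3.82, 2.95 and 4.16 in low-Lcn2 late kidneys. Genes of the Ugt2b cluster resemble each other and their probe sets may share signal. Aoc1, which degrades histamine and putrescine, was 8.12 to 9.42 in high-Lcn2 and 6.25 to 6.70 in low-Lcn2 late kidneys, and untreated kidneys stood at 5.57 ± 0.04 (SD, n = 3). Serpina10, a plasma protease inhibitor of coagulation, differed by 2.30. Cyp27b1, which makes the active form of vitamin D, varied within the high-Lcn2 set (5.44 to 8.58) and differed by 2.20. Adamts4, an aggrecan-cleaving protease, differed by 2.01. Slc34a2, a sodium-phosphate transporter of other epithelia, differed by 1.85, and Oit1 by 2.16.

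Outside the lists, Igfbp1, an insulin-like growth factor binding protein, was 6.02, 5.87, 8.76 and 7.63 in the high-Lcn2 kidneys of week 7 and 9.08, 9.10 and 8.61 in those of week 9, against 9.54, 10.52 and 9.67 in the low-Lcn2 late kidneys. The 2 lowest values were week 7 replicates 1 and 2, and the difference was -2.47 within week 7 and -1.16 within week 9. Ces1e, a carboxylesterase, differed by -2.29, Akr1c14, an aldo-keto reductase, by -2.13, Cyp2d26 by -2.08, Eci3, an enoyl-CoA isomerase, by -1.98 and Cndp1, a dipeptidase that cleaves carnosine, by -1.94. Dusp15 and Nap1l5 differed by -2.0 and -1.94, and Spp2, a secreted phosphoprotein, by -1.88.

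Collection week and set are not balanced, with 4 high-Lcn2 kidneys and 1 low-Lcn2 kidney at week 7, and 3 and 2 at week 9. Of the 172 higher genes, 147 differed by over 2-fold within week 7 and 144 within week 9. Of the 149 lower genes, 136 did so within week 7 and 91 within week 9. The median difference of the higher genes was 1.29 within week 7 and 1.24 within week 9, and that of the lower genes -1.48 and -1.08. The genes were chosen over both weeks together, for high-Lcn2 values beyond all low-Lcn2 values. Their direction within each week follows from that choice, so these counts and medians do not check the imbalance. At week 7 the low-Lcn2 side is also only 1 kidney, and shares over all genes were not computed. The labelled weeks themselves were compared with limma, which tests group means over all genes with a shared spread. Week 9 minus week 7 gave 2 of 17096 genes (0.0117%) past an adjusted p of 0.05 and 2-fold, neither of them a gene set apart, with 2187 genes at an unadjusted p under 0.05. They were Atp12a, a proton pump, at 1.41 (SE 0.23, limma adjusted p = 0.0132), and Dnm3os, a non-coding RNA, at -1.01 (SE 0.21, limma adjusted p = 0.0482). That count was 25 without week 7 replicate 4, the low-Lcn2 kidney of that week. Both weeks hold kidneys of either set, so the spread behind that test is wide for the genes set apart, and their misses carry no information.

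**Figure D4:**
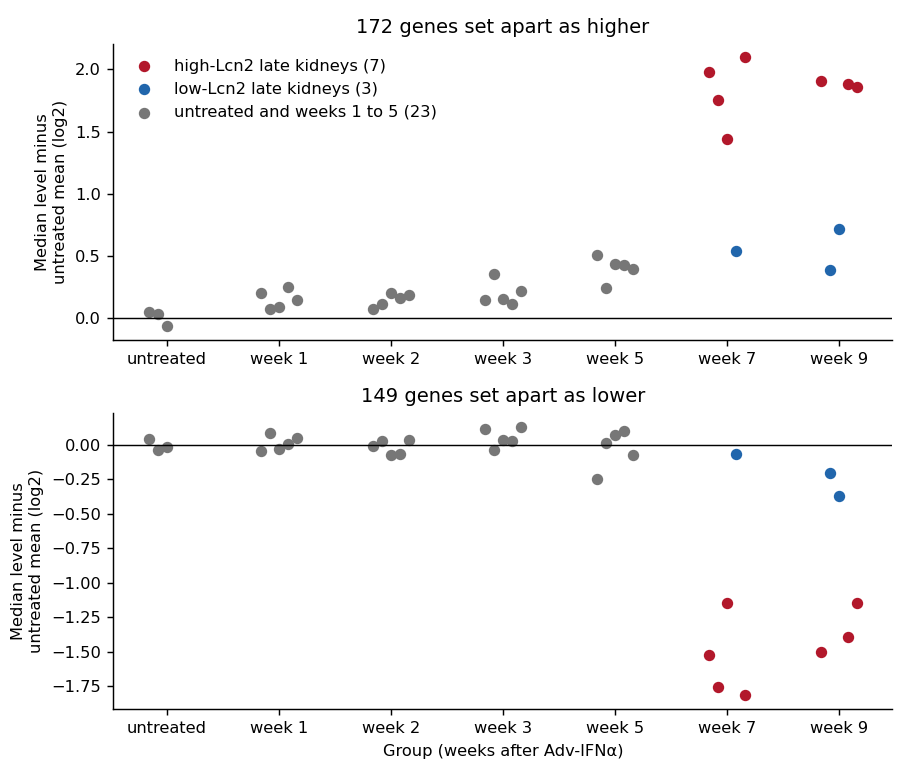
Median level of the 172 higher genes (upper panel) and the 149 lower genes (lower panel) in each kidney, less the untreated mean of each gene (vertical axes, log2), by group (horizontal axis), with 1 point per kidney. The 7 high-Lcn2 late kidneys lie at 1.44 to 2.10 and -1.82 to -1.14, and the 3 low-Lcn2 late kidneys at 0.38 to 0.71 and -0.37 to -0.07. The genes were chosen from these late kidneys, so the gap between the late sets follows from the choice.

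In the genes set apart, the low-Lcn2 late kidneys lay between untreated and high-Lcn2 late kidneys by the median gene. That order holds for these chosen genes only. The median higher gene was 1.88 above untreated kidneys in high-Lcn2 and 0.53 above them in low-Lcn2 late kidneys, and the median lower gene was at -1.47 and -0.20. All 7 high-Lcn2 late kidneys were beyond every untreated and every earlier treated kidney in 120 of the 172 higher genes and 136 of the 149 lower genes. All 3 low-Lcn2 late kidneys were within the range of untreated and week 5 kidneys in 82 of the 172 and 52 of the 149. Week 9 replicate 3, the low-Lcn2 kidney with the highest Lcn2, was the nearest of its set to the high-Lcn2 kidneys in 97 of the 172 higher and 85 of the 149 lower genes. With 3 kidneys in the set, 1 of them is nearest for any gene, and a relation to the Lcn2 level was not tested. The genes were chosen for high-Lcn2 values beyond the low-Lcn2 ones, so these counts lean on that choice. Shares over all genes were not computed for them. These comparisons share the untreated kidneys and are descriptions.

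Kidneys of week 5 were set against untreated kidneys with limma, over all genes. With all 33 arrays in the fit, week 5 minus untreated called 197 of 17096 genes as higher (1.15%) and 7 as lower (0.0409%) at an adjusted p below 0.05 and over 2-fold, and 470 (2.75%) and 135 (0.79%) without the fold threshold. That fit pools 1 spread per gene over all weeks, the late kidneys included. For the 321 genes set apart, the choice itself makes the late kidneys spread widely, so their errors at week 5 were enlarged. The median SE was 0.33 for the higher and 0.30 for the lower genes, against 0.16 over all genes. Misses in that fit therefore say nothing about these genes. The fit was repeated over the 23 arrays without late kidneys, an alternative added after the data were seen, in which the median SE was 0.20 for the higher, 0.14 for the lower and 0.15 for all genes. It called 712 genes as higher (4.16%) and 186 as lower (1.09%) at an adjusted p below 0.05.

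Of the 172 higher genes, 50 were called as higher at week 5 without the late kidneys in the fit and 0 as lower, and 23 and 0 with all 33 arrays. Among the 50 were interferon-induced genes: Rtp4 rose by 2.54 (SE 0.17, limma adjusted p = 5.011e-10), Irgm1, an interferon-induced GTPase, by 2.28, Ifi202b by 2.09, Ifi204 by 2.03 and Ifit2 by 1.64. Also among them were C4b at 2.19, Cd44, a hyaluronan receptor, at 1.91, Vcam1, a leukocyte adhesion molecule, at 1.09, the fibrillar collagen gene Col1a1 at 1.09 and the spindle genes Prc1 at 1.92 and Nusap1 at 1.74, all higher at week 5. Havcr1 was at 0.27 (SE 0.19, limma adjusted p = 0.45) and Ugt2b37 at 0.39 (SE 0.25, limma adjusted p = 0.41), and neither passed the test. Of the 149 lower genes, 7 were called as lower and 5 as higher at week 5, none of them over 2-fold. Dnase1 fell by 0.55 (SE 0.13, limma adjusted p = 0.0174). Slc16a14, of the monocarboxylate transporter family, fell by 0.86, while Dpep1, a brush border dipeptidase, rose by 1.00 and Slc6a19, a neutral amino acid transporter, by 0.59. Bhmt was at -0.67 (SE 0.21, limma adjusted p = 0.0696). With only the week 5 and untreated arrays in the fit, 33 of the 172 higher genes were called as higher, and 1 of the 149 lower genes as lower and 1 as higher. Dnase1 then had an adjusted p of 0.15 in limma. By list, without the late kidneys in the fit, 32 of 36 interferon-stimulated genes, 16 of 31 macrophage and monocyte genes, 6 of 23 tubular injury genes and 7 of 37 matrix genes rose at week 5 and none of them fell. Among 32 proximal tubule transporters 1 rose and 0 fell, and among 25 amino acid enzymes 0 rose and 1 fell. Differences between lists were not tested.

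**Figure D5:**
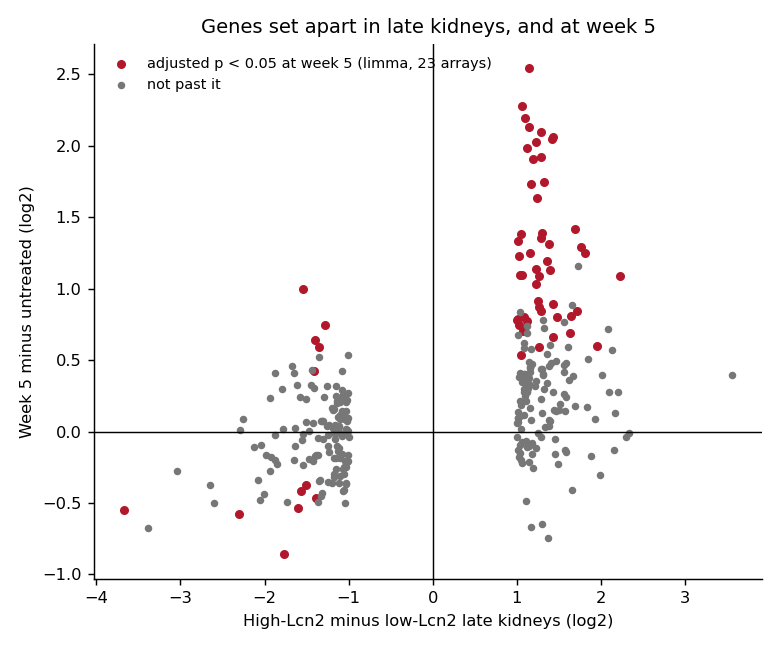
Each of the 321 genes set apart in late kidneys, by its difference between high-Lcn2 and low-Lcn2 late kidneys (horizontal axis, log2) and its difference between week 5 and untreated kidneys (vertical axis, log2). Marked genes passed an adjusted p of 0.05 in limma without the late kidneys in the fit: the 50 marked higher genes all lie above 0 at week 5, and of the marked lower genes 7 lie below 0 and 5 above.

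The level of Lcn2 itself also varied, by little, among the 20 treated kidneys of weeks 1 to 5, which the choice did not use. A limma slope on that level, with week as a factor, called 2 of 45036 probe sets as rising with it (0.00444%) and 0 as falling, with 2850 at an unadjusted p under 0.05. They were Tmsb10, an actin-binding thymosin, with a slope of 0.75 per log2 unit of Lcn2 (SE 0.11, limma adjusted p = 0.0308), and Slc15a3, a lysosomal peptide transporter, with 0.89 (SE 0.14, limma adjusted p = 0.0409). Slc15a3 is not among the 321 genes set apart in late kidneys. Tmsb10 is, by its brightest probe set (10.92 in high-Lcn2 and 9.68 in low-Lcn2 late kidneys), and that probe set had a slope of 0.44 (SE 0.12, limma adjusted p = 0.46), so the call rests on a dimmer one. With Lcn2 at 3.17 to 4.66 in those kidneys, near the array's dim end, the slope had a narrow range to rest on. The calls depended on single kidneys: leaving out each of the 20 kidneys in turn gave 0 probe sets for 11 of them, and 7 probe sets were called without week 5 replicate 5.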

How the data were processed

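Total RNA was extracted with Trizol, labelled with NuGEN Ovation Biotin reagents and hybridised to Affymetrix mouse arrays, 1 per kidney. The log2 values deposited by the authors are RMA-normalized intensities, which have a corrected background, equalised distributions and 1 value per probe set. The log base was taken from the range of the values (0.58 to 13.1 over the genes used). RMA and Partek stand in the submitters' processing notes without versions, and no genome build is given in the sources used here. Array data carry no counts, so the number of kidneys limits the precision. RMA also compresses changes of dim probe sets.

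The values were used as deposited. Of 45141 probe sets, 104 were controls, and 28898 of the remaining 45037 carried 1 gene symbol, 551 several and 15588 none. The brightest probe set, by its mean over 33 arrays, stood for each of 17097 genes, and 82 of 623 list members were not analysed here. Late kidneys were split at an Lcn2 level of 7, described by means, SD and overlap, and not tested. Tests used limma 3.58.1 in R 4.3.3 (lmFit and eBayes, 7 group means over 33 arrays, 26 residual degrees of freedom; 15 for the Lcn2 slope over 20 arrays), with Benjamini-Hochberg adjustment over all probe sets; where 1 spread serves all groups, that of week 5 and untreated kidneys is overstated for the genes set apart, so that test was repeated over 23 arrays (18 degrees of freedom). Tables and figures were made in Python 3.11.15. Nothing says that kidneys came from separate litters or days, so p-values measure the spread between these mice. The fits were tested on simulated data.

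Named genes were the 15 largest differences per direction among genes without overlap and with a mean of at least 5 over the late kidneys, up to 5 members per list, defining markers of cell types and genes the study discusses; genes without an official symbol were counted, not named. Names outside this rule were picked once their values were known: the week 5 genes other than list members, the 2 genes of the week contrast, the 2 of the Lcn2 slope and the promoters printed. The split, the members and the 27 gene lists were chosen with earlier results of these data known. Alternatives were other Lcn2 levels, gene summaries, filters, single weeks, array weights, a beta-actin covariate, a replicate block and leaving out each kidney.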

Additional observations from a re-analysis of the deposited data

Results flagged for a closer look

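In 121 named genes the 7 high-Lcn2 late kidneys were checked for a single kidney far from the other 6, and 10 genes had one, while chance gives about 1 in 20. Week 7 replicate 1 stood apart in Gbp2 (9.44, others 6.96 to 7.51), an interferon-induced GTPase, in Ccl7 (4.0, others 2.09 to 2.63) and in Slc6a6, a taurine transporter (11.25, others 11.51 to 11.70). Week 7 replicate 2 stood apart in Agxt2 (3.31, others 4.73 to 5.33), Gsta2 (9.51, others 8.28 to 8.78), Ndufs7 (7.91, others 8.47 to 8.73) and Saa3 (4.87, others 3.30 to 3.84). Week 7 replicate 3, which had the lowest Lcn2 of the 7 at 8.53, stood apart in Cldn4 (5.07, others 6.38 to 7.22) and S100a6 (7.36, others 8.12 to 8.55). Week 9 replicate 4 stood apart in Ptpro, a podocyte phosphatase (7.15, others 7.47 to 7.66).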

How the results depend on the processing

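The 172 higher and 149 lower genes were 172 and 149 with an Lcn2 level of 6 or 8, since no kidney lies between, and 303 and 270 with the kidneys of week 7 only, where the low-Lcn2 side is 1 kidney and overlap is easier to avoid. Leaving out 1 late kidney gave 146 to 240 higher and 118 to 187 lower genes, and the other alternatives 129 to 244 and 107 to 155. A mean over Lcn2 probe sets was not run, since there is 1. For the 143 named genes, 2632 alternative values moved by less than 1 SD and 49, in 36 genes, by more, with no change of sign. Week 5 minus untreated (197 higher, 7 lower) gave 470 and 135 with no fold threshold, 222 and 8 without the 10 late arrays, 172 and 4 once the beta-actin ratio entered as a covariate, and 151 to 228 and 5 to 15 on leaving out 1 kidney, 15 without untreated replicate 2. Week 9 minus week 7 (2 genes) gave 0 with only the 2 groups compared, 1 with array weights, 1 with the beta-actin ratio, 12 with no fold threshold and 1 to 25 on leaving out 1 kidney. The Lcn2 slope (2 up, 0 down) gave 1 up over weeks 1, 2 and 3, 0 with the beta-actin ratio, 42 up and 1 down without the week term, and 0 to 7 up and 0 to 0 down on leaving out 1 kidney. The causes were not tested. Replicate numbers do not pair the kidneys (median correlation of deviations -0.017 for the same number and 0.001 for different numbers). With a replicate block the counts were 186 and 9 at week 5, 1 for week 9 minus week 7 and 1 for the slope. Dim probe sets limit the calls for immune cell markers.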

Other observations

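Some gene families, chosen after their values were seen and so not tested, are given for high-Lcn2 and low-Lcn2 late kidneys. Several share members with the lists above, so their counts are not separate observations. Over all genes 6.58% were higher and 4.85% lower without overlap. The Slc22 organic ion transporters had 12 of 19 members without overlap as lower and 0 as higher, with a median difference of -0.84. Among them were Slc22a19, Slc22a12, the urate transporter URAT1, and Slc22a6, the organic anion transporter OAT1, at -1.17, -1.14 and -1.03. Over all 328 solute carrier genes, 60 were lower and 25 higher without overlap. MHC class II genes had 3 of 10 without overlap as higher, H2-DMb2 (1.61), H2-Ab1 (1.38) and H2-DMa (1.32), and a family median of 0.97. Annexins had 5 of 11 higher, with Anxa2 at 1.27, and claudins 6 of 26 higher and 1 lower. Keratins had 5 of 41 higher and 1 lower, and the higher ones over 2-fold were the simple epithelial keratins Krt20, Krt18 (1.29) and Krt19 (1.14). Aquaporins had 4 of 11 lower and 0 higher, with Aqp11 at -1.34 beside Aqp4. Proteasome subunits had 4 of 19 higher, with the interferon-inducible Psmb8 at 1.36. Cytochromes P450 of families 2 and 4 had 2 of 42 higher and 3 lower, close to the shares over all genes.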
